A study of Mus musculus with 12 samples.

Results

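The genes described here encode the proteins of the cytosolic ribosome, and they were measured in RNA of the liver immune cell fraction of mice fed a normal chow diet (NCD) or a high-fat diet (HFD). Members were taken by symbol alone, as Rpl or Rps followed by a number with at most 1 letter out of a, x, l and y, together with Rplp0, Rplp1, Rplp2 and Rpsa. Symbols of pseudogenes ending in -ps were left out. This gave 83 of the 40840 genes listed, 76 of them standard ribosomal protein genes (30 of the small 40S subunit and 46 of the large 60S subunit) and 7 of them copies whose symbol ends in l. The symbols of Fau, Rack1 and Rps3a1, which also encode ribosome components, have another form, and these genes are given separately.

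WT mice (strain C57BL/6 by the labels and C57BL/6J by the methods) and Casp11-/- mice (strain B6.129S4(D2)-Casp4tm1Yuan/J, which lack caspase-11, encoded by Casp4, in the whole body) made up 4 groups of 3 mice each, with WT-NCD and WT-HFD as the first pair and Casp11-/- NCD with Casp11-/- HFD as the other. Males began the diets at 8 to 10 weeks of age and stayed on them for 12 weeks, by the study's methods. The labels call the cells hepatic macrophages, and the methods describe an immune cell fraction and name no sorting step for the RNA. WT-NCD replicate 3 was left out by the rule that chose the members, so 11 of the 12 libraries were used.

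Values are TPM, a measure of transcripts per gene that corrects reads for gene length and puts every library on 1 total, so that levels can be compared between genes. The lowest value listed was 1.007 TPM, called the floor here. The protocol names 1 read depth for all samples, but the values carry no read numbers, which leaves the depth reached in each library unknown. Casp4 was listed at 5.60 to 15.6 TPM in the WT libraries used and at 2.56 to 15.2 TPM in the libraries labelled Casp11-/-, and 2 of these 6 lay within the WT range, so the genotype is given as labelled. Markers of Kupffer cells, the resident macrophages of the liver, made up 0.0209 to 0.0334% of protein-coding TPM on NCD and 0.126 to 0.356% on HFD, while hepatocyte markers made up 1.60 to 7.68% over all 11 libraries. The fraction therefore held RNA of several cell types, and for such bulk RNA fewer cells of a type and less RNA per cell cannot be told apart.

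Each ribosome holds 1 copy of most of these proteins, and their genes are expressed together in nearly every cell. Their mRNAs begin with a run of pyrimidines (C and T) at the 5′ end, the terminal oligopyrimidine tract, through which their translation follows mTOR signalling. Resting lymphocytes enlarge and make more ribosomes when activated, and these genes are among the most abundant mRNAs of most cells.

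All 76 standard genes were above the floor in all 11 libraries. Among the highest mean levels were those of Rpl10 (807 TPM), Rpl23a (666 TPM), Rplp0 (641 TPM) and Rpl7 (616 TPM), and the lowest were those of Rpl37 (24.5 TPM), Rpl36a (26.3 TPM), Rps15a (28.6 TPM), Rpl22 (31.3 TPM) and Rpl18 (33.7 TPM). The highest mean was 32.9 times the lowest, and the median of the 76 means was 265 TPM. Genes of proteins that the ribosome holds in equal numbers were listed at very unequal TPM. Of the 76, 55 have pseudogenes named after them, 287 in all (24 for Rpl31, 23 for Rps12), with which reads may be shared, so single levels carry that uncertainty. They lie on 19 chromosomes, with 14 on chromosome 7 and 4 on the X chromosome, and 29 of them hold 56 small nucleolar RNA genes within their bounds (GENCODE vM21, GRCm38).

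Start sites of these genes are shown because their mRNAs begin with a pyrimidine run. RefSeq (GRCm38.p6) promoters were found for 56 of the 76 genes and searched against all 27025 genes of that table. A run of at least 8 C or T within 15 bases of the start was present in 23 of 56 (41.1%), against 11.9% of all genes. Windows were picked among genes whose diet differences, given further on, were large (Rpl13, Rps26, Rpl28, Rpl12) or small (Rpl39, Rpl37, Rpl26). A few picked genes cannot show how run length goes with the diet difference, which is compared over all 56 further on. Below are 30 bases around the start of these genes and of Fau and Rack1, 5′ to 3′ on the gene's strand. The longest run of C and T is in capitals.
Rpl13: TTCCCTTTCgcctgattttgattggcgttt
Rps26: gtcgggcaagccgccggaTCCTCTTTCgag
Rpl28: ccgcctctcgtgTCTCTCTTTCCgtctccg
Rpl12: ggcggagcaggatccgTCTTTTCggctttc
Rpl39: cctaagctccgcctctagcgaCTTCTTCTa
Rpl37: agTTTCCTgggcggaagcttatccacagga
Rpl26: CTCgcggcaacttacagaaccggaagtcgc
Fau: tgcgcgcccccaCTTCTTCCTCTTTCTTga
Rack1: cggaggccgCTCTTTCTTTTTCTCCacagg

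These windows lie at chr8:123102335-123102364 for Rpl13, chr10:128626492-128626521 (minus strand) for Rps26, chr7:4792950-4792979 for Rpl28, chr2:32961697-32961726 for Rpl12, chrX:37085208-37085237 (minus strand) for Rpl39, chr15:5116598-5116627 for Rpl37, chr11:68901551-68901580 for Rpl26, chr19:6057932-6057961 for Fau and chr11:48800345-48800374 for Rack1. Rpl13, Rps26 and Rpl28 have runs of 9, 9 and 11 bases, Rpl39 of 8, Rpl12 of 7, Rpl37 of 6 and Rpl26 of 3. The annotated start lies in the middle of each window, and the longest run was marked wherever it fell. It lies before the start in Rpl13, Rpl37 and Rpl26 and after it in Rps26, Rpl12 and Rpl39. A marked run is therefore not shown to begin the mRNA. Of fixed letters searched on both strands of the 300-base promoters, CCGGAA was in 28 of 56 (50%, against 15.2% of all genes) and CCGCCC in 33 (58.9%, against 35.9%), while CACGTG was in 5 (8.93%, against 7.24%), TATAAA in 5 (8.93%, against 14.2%) and CCAAT in 18 (32.1%, against 37.9%). A match is a string of letters and not a shown binding site.

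The whole set stood lower on HFD than on NCD in both genotypes. The median of the 76 genes was 434 and 442 TPM in the WT-NCD libraries, 145, 87.1 and 217 TPM in WT-HFD, 536, 201 and 350.4 TPM in Casp11-/- NCD, and 130.1, 133 and 176 TPM in Casp11-/- HFD. Only Casp11-/- NCD replicate 2, at 201 TPM, lay below the highest HFD library, WT-HFD replicate 3. That NCD library also had the largest share of 7SL RNA, the RNA of the signal recognition particle, at 52.8% of all TPM against 12.4 to 35.8% in the HFD libraries.

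**Figure D1:**
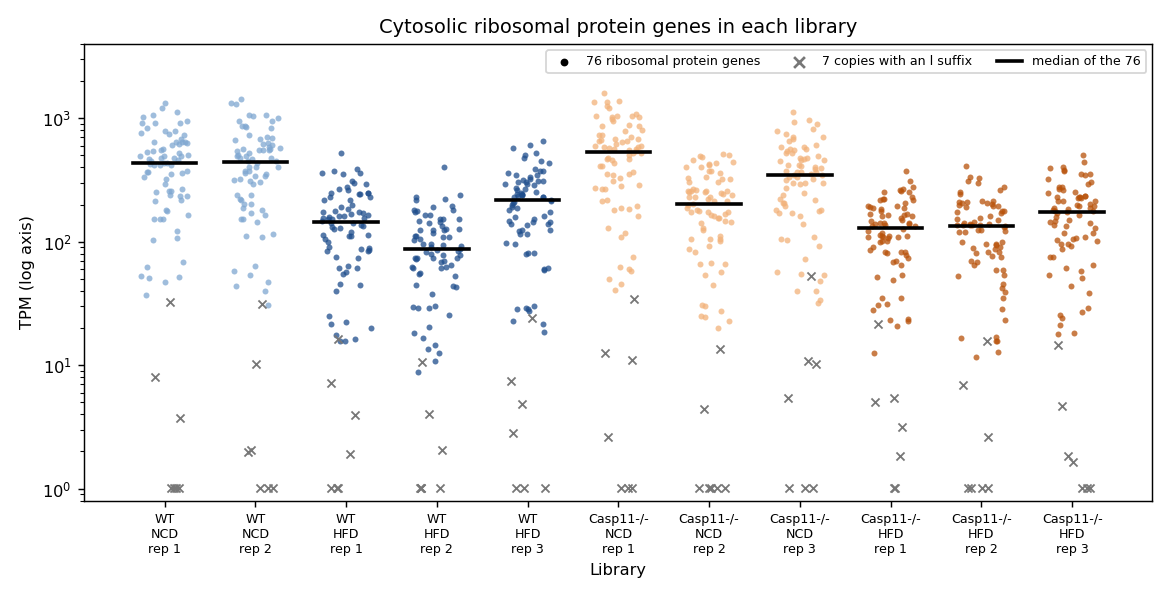
TPM (log axis) of each of the 76 standard genes (points), their median (bar) and the 7 copies with an l suffix (crosses) in each of the 11 libraries. The medians lay between 201 and 536 TPM on NCD and between 87.1 and 217 TPM on HFD, and most crosses lie near the floor.

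Relative to protein-coding TPM, the 83 genes took a smaller share on HFD in both genotypes. They made up 10.2% and 9.40% of protein-coding TPM in WT-NCD (9.82 ± 0.600%, mean ± SD, n = 2) and 4.83, 4.77 and 6.72% in WT-HFD (5.44 ± 1.11%, n = 3). In the Casp11-/- libraries they made up 11.4, 7.22 and 6.67% on NCD (8.44 ± 2.60%, n = 3) and 5.26, 4.32 and 5.86% on HFD (5.15 ± 0.776%, n = 3). All 6 HFD libraries lay at or below 6.72% and all 5 NCD libraries at or above 6.67%, so the diets overlapped by 1 library on each side. The share on NCD was 1.81 times that on HFD in WT mice and 1.64 times in Casp11-/- mice, as the ratio of the group mean shares. The split between subunits barely moved, with 40S genes at 40.9 ± 0.621% of ribosomal protein TPM on NCD (n = 5) and 41.1 ± 1.24% on HFD (n = 6).

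The genes of the mitochondrial ribosome, which sits in the mitochondria and has its own set of proteins, differed less clearly between the diets. The 78 of them made up 0.201 to 0.288% of protein-coding TPM on NCD and 0.176 to 0.224% on HFD, and the diets overlapped. Per unit of mitochondrial ribosomal protein TPM, cytosolic ribosomal protein TPM was 28.3 to 46.3 on NCD and 23.8 to 32.9 on HFD.

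**Figure D2:**
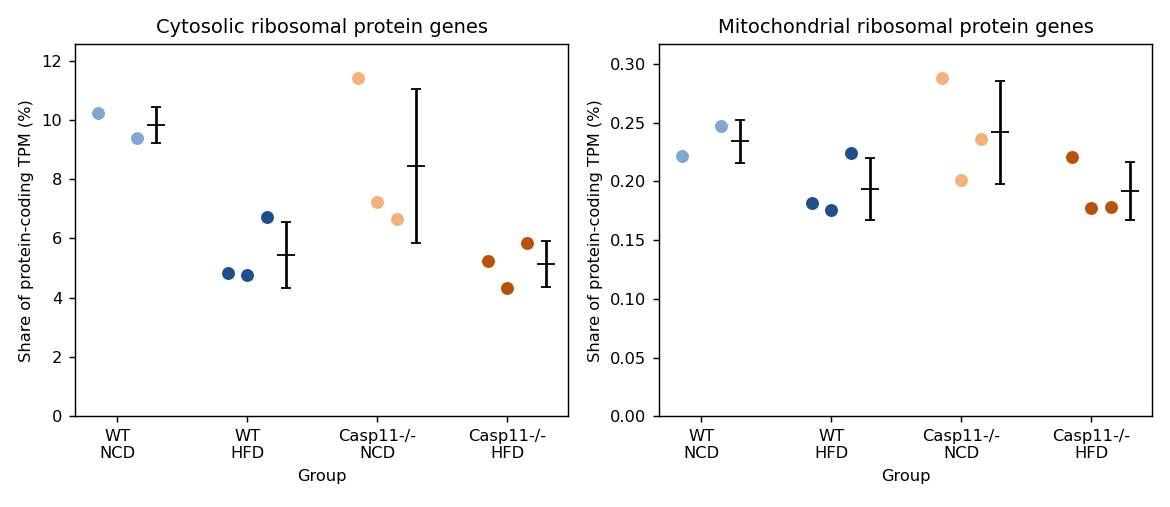
Share of protein-coding TPM (%) of the 83 cytosolic (left) and 78 mitochondrial (right) ribosomal protein genes, by group, with 1 point for each library and the mean and SD as a bar. The cytosolic share was 6.67 to 11.4% on NCD and 4.32 to 6.72% on HFD.

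The diet comparison used limma on log2(TPM + 1), a linear model across all genes, with Benjamini-Hochberg adjusted p over the 17950 genes that exceeded the floor in 3 or more libraries. Of the 83 members 80 were tested. Averaged over both genotypes, 73 of the 80 fell on HFD and 0 rose at an adjusted p under 0.05, against 17.3% of all genes tested that were called lower. All 30 of the 40S genes fell, and 43 of the 46 of the 60S. The median log2 fold change of the members was -1.40, a 2.64-fold lower TPM on HFD, and that of all genes was -0.39.

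Short noncoding RNA moved in the same libraries. RNA of the 5 U3 genes, a small nucleolar RNA, took 1.24 to 4.84% of all TPM on NCD and 25.8 to 58.5% on HFD, which lowers the TPM of every other gene by construction. To set this aside, protein-coding genes alone were rescaled to a common total per library and tested again (12369 genes, 78 of them members). On that scale 29 of the 78 members fell and 0 rose, against 6.26% of all genes called lower, and the median member was -0.74, a 1.67-fold lower level. Subunits were represented by 14 of 30 (40S) and 15 of 46 (60S) genes called. Over all genes the split turned from 192 higher and 3097 lower in TPM to 921 higher and 774 lower when rescaled, and the median of all genes from -0.39 to -0.05.

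These counts depended on single libraries. The TPM count of 73 became 3 without WT-NCD replicate 2, where 2.96% of all genes were called lower, so that the members' share lay near that of all genes. It became 16 without WT-NCD replicate 1 (5.19% of all genes) or WT-HFD replicate 2 (3.64%), 32 without Casp11-/- HFD replicate 1 (5.24%), 44 without Casp11-/- NCD replicate 1 (6.64%), 47 without Casp11-/- HFD replicate 2 (9.4%) and 46 without WT-HFD replicate 1 (7.26%). Without any 1 of the others it was 64 to 78, the highest without Casp11-/- NCD replicate 2, where 45.8% of all genes were called lower. The rescaled count of 29 became 0 without WT-NCD replicate 1 or 2 or WT-HFD replicate 1, 1 without WT-HFD replicate 2 or Casp11-/- HFD replicate 1, and 4 without Casp11-/- NCD replicate 1 or Casp11-/- HFD replicate 2, in fits that called 0.635 to 3.94% of all genes lower. It became 14 without Casp11-/- HFD replicate 3 (4.88% of all genes) and 56 without Casp11-/- NCD replicate 2 (18.5% of all genes). The median fold change moved far less, from -1.59 to -1.25 in TPM and from -0.84 to -0.63 when rescaled.

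**Figure D3:**
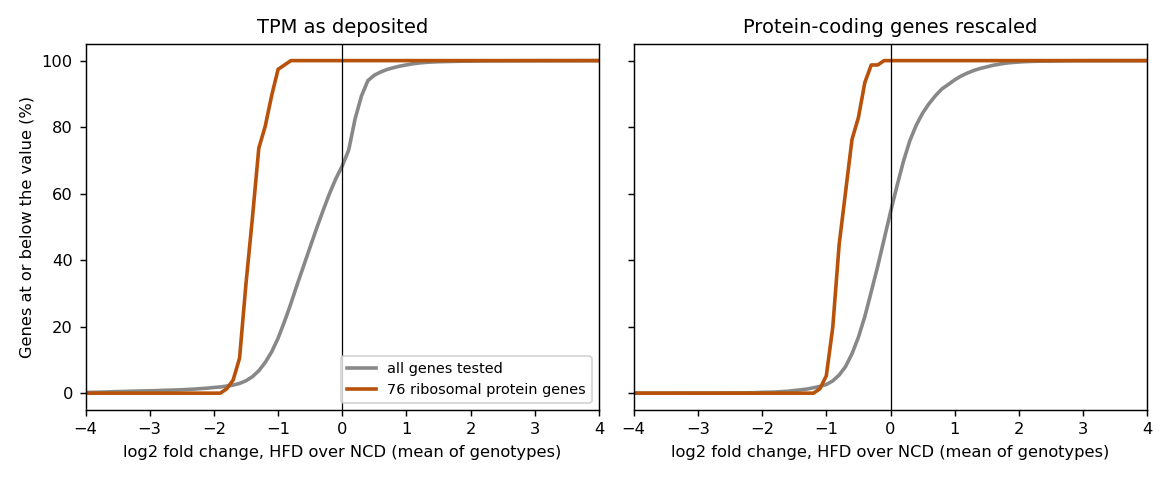
Cumulative share of genes (%) by log2 fold change of HFD over NCD (mean of genotypes), for the 76 standard genes and for all genes tested, in TPM (left) and with protein-coding genes rescaled (right). The curve of the 76 lies to the left of that of all genes on both scales and rises over a narrow range below 0.

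Within WT mice alone, 1 of 80 members, Rpl28, passed the test, beside 2.04% of all genes called lower. In Casp11-/- mice alone, limma called 0 of 80, beside 0.986% of all genes. The median log2 fold change was -1.59 in WT and -1.24 in Casp11-/- mice, and without Casp11-/- NCD replicate 2 the counts became 49 (5.78% of all genes lower in that fit) and 77 (46.1% of all genes lower). Rescaled, 0 of 78 were called in either genotype (backgrounds 0.299% in WT and 0.873% in Casp11-/-), with medians of -0.85 and -0.66. Each of the 76 standard genes had a negative fold change in both genotypes.

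Counted without a model, 26 of the 80 members had all 6 HFD libraries below all 5 NCD libraries in TPM, against 5.6% of all genes tested, and 26 of 78 did so when rescaled, against 4.25%. In WT mice all HFD values lay below all NCD values for 77 of the 80 (40.3% of all genes), the exceptions being Rpl26, Rpl32l and Rps4l. In Casp11-/- mice this held for 69 of the 80 (16.4% of all genes). The exceptions there were Rps4l, Rps27l, Rpl6l and Rpl32l among the copies and Rpl11, Rpl22, Rpl36a, Rpl37, Rplp1, Rps21 and Rps29 among the standard genes. When rescaled, the diets were apart in this way for 71 of 78 members in WT mice (2449 of all 12369 genes). In Casp11-/- mice they were for 51 of 78 (1789 of 12369). The summed ribosomal protein TPM of Casp11-/- NCD replicate 2 was the lowest of the NCD libraries, at 16457 against 28746 to 42730.2.

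**Figure D4:**
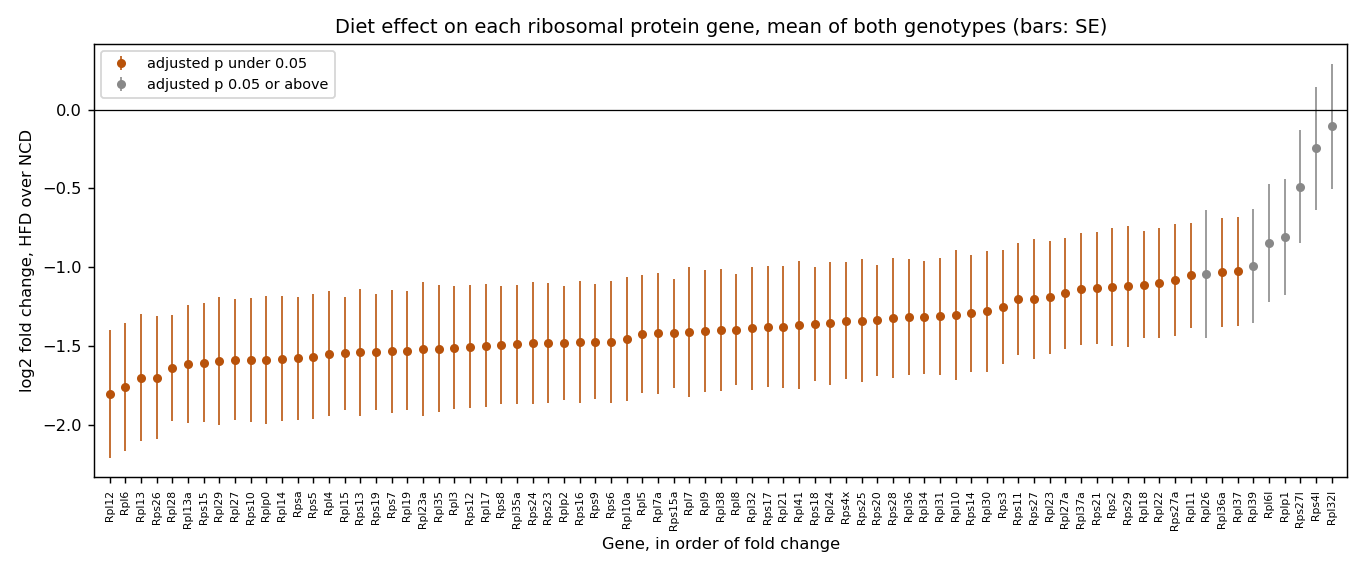
log2 fold change of HFD over NCD (mean of both genotypes, TPM) for the members tested (1 not shown), with bars for the SE, in order of size and coloured by whether the adjusted p was under 0.05. Values run from -1.80 (Rpl12) to -0.10 (Rpl32l), and the 7 genes not called (grey) lie at the upper end, where Rpl37 and Rpl36a are the called genes among them.

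Rpl12, at the base of the stalk of the 60S subunit where elongation factors dock, had the largest diet difference among the members (chr2:32961559-32965345, GRCm38). It was at 944 and 837 TPM in WT-NCD, at 231, 119 and 308 TPM in WT-HFD, 1079, 401 and 562 TPM in Casp11-/- NCD, and 176, 204 and 305 TPM in Casp11-/- HFD. Every NCD value lay above every HFD value in TPM, while the diets overlapped when rescaled. Rpl12 fell by 1.80 ± 0.404 on the log2 scale (SE; limma, adjusted p = 0.00632) and had a rescaled log2 fold change of -1.14 (adjusted p = 0.0250).

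Rps26, which lines the exit of the mRNA channel on the 40S subunit, followed the same order (chr10:128624534-128626747). It was at 787 and 862 TPM in WT-NCD, at 232, 153 and 306 TPM in WT-HFD, 1016, 329 and 584 TPM in Casp11-/- NCD, and 189, 194 and 231 TPM in Casp11-/- HFD, with no overlap of the diets. It fell by 1.70 ± 0.393 on the log2 scale (SE; limma, adjusted p = 0.00802) and had a rescaled log2 fold change of -1.03 (adjusted p = 0.0256). Rpl6 (-1.76) and Rpl13 (-1.70), both of the 60S subunit, were also among the 5 genes of lowest log2 fold change.

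Rpl28 (chr7:4792874-4795066), a 60S protein, was the member called within WT mice. In WT mice it was at 107 and 109.9 TPM on NCD and at 19.97, 20.4 and 28.4 TPM on HFD. It was at 109, 53.3 and 57.2 TPM in Casp11-/- NCD and 31.4, 28.7 and 38.2 TPM in Casp11-/- HFD. Its difference was -2.21 ± 0.500 on the log2 scale in WT mice (SE; limma, adjusted p = 0.0129) and -1.07 ± 0.447 in Casp11-/- mice (adjusted p = 0.153). The difference between these effects did not pass the test (interaction 1.14 ± 0.671, adjusted p = 0.9998). Without either WT-NCD library, or without WT-HFD replicate 1 or 2, no member was called in WT mice, and 7 were called without WT-HFD replicate 3 or without Casp11-/- NCD replicate 1 (2.19% and 2.5% of all genes lower).

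The acidic stalk of the 60S subunit, built of Rplp0, Rplp1 and Rplp2, recruits the GTPases of translation. Rplp0 fell by 1.59 and Rplp2 by 1.48 on the log2 scale (limma, adjusted p = 0.0152 and 0.0122). Both had no overlap between the diets in TPM, and Rplp2 overlapped when rescaled. Rplp1 did not pass the test at -0.81 ± 0.368 (adjusted p = 0.115), nor when rescaled at -0.14 (adjusted p = 0.728). It was at 218 TPM in both WT-NCD libraries, 106, 88.1 and 146 TPM in WT-HFD, 214, 101 and 239.7 TPM in Casp11-/- NCD, and 163, 77.2 and 108 TPM in Casp11-/- HFD. Casp11-/- NCD replicate 2 lay among the HFD values, and Casp11-/- HFD replicate 1 lay above it.

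Around the exit of the peptide tunnel of the 60S subunit, 6 of 8 genes fell in TPM and 2 of 8 when rescaled, where the shares over all genes were 17.3% and 6.26% for this and the following groups. The 2 that did not pass in TPM were Rpl39, a small protein of the tunnel wall, at -0.99 (adjusted p = 0.0563), and Rpl26, near the tunnel exit and also known to bind p53 mRNA, at -1.04 (adjusted p = 0.0689). Rpl26 was at 418 and 615 TPM in WT-NCD, at 293, 177 and 450.2 TPM in WT-HFD, 1046, 376 and 706 TPM in Casp11-/- NCD, and 231, 244 and 356 TPM in Casp11-/- HFD. Its WT-NCD values were the low ones: against the median ribosomal protein gene of the same library it stood at -0.05 and 0.48 on the log2 scale in the WT-NCD libraries and at 0.82 to 1.05 in the other 9.

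The 2 genes of the 5S particle, Rpl5 and Rpl11, whose free proteins bind Mdm2 and so stabilise p53, fell in TPM (-1.42 and -1.05, adjusted p = 0.0179 and 0.0344) and passed no test when rescaled (0 of 2). All 8 genes along the mRNA channel of the 40S subunit fell in TPM and 4 of 8 when rescaled. Of 9 genes whose loss of 1 copy causes the red cell failure of Diamond-Blackfan anaemia, among them Rps19, all 9 fell in TPM and 6 when rescaled. Rps19 was at 360.1 and 339 TPM in WT-NCD, at 91.3, 67.9 and 159.7 TPM in WT-HFD, 355, 176 and 293 TPM in Casp11-/- NCD, and 110.2, 89.9 and 128 TPM in Casp11-/- HFD, again without overlap. Genes with and without small nucleolar RNA genes inside gave similar values, with medians of -1.47 (28 of 29 called) and -1.40 (45 of 47 called). Among the 56 genes with a RefSeq start site the median diet log2 fold change was -1.47 with a run of at least 8 (n = 23) and -1.40 without (n = 33), with ranges of -1.70 to -0.99 and of -1.80 to -1.025.

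Of 7 ribosome genes outside the symbol rule 5 fell in TPM (17.3% of all genes) and 3 when rescaled (6.26% of all genes). Rps3a1, of the 40S subunit, had a larger diet difference than any member, at -1.95 over both genotypes (limma, adjusted p = 0.00382). In WT mice it was at -2.55 (adjusted p = 0.0219), and rescaled over both genotypes at -1.29 (adjusted p = 0.0167). Fau, whose product carries the 40S protein eS30, had a log2 fold change of -1.67 (adjusted p = 0.0144), and Rack1, a scaffold on the 40S head, -1.51 (adjusted p = 0.0194). The 2 that did not pass on either scale, Rpl22l1 and Rps27rt, genes close in sequence to Rpl22 and Rps27, were at -0.63 and -0.47 in TPM (adjusted p = 0.206 and 0.342). Of 20 genes for elongation and initiation factors, poly(A)-binding protein and proteins that act on nascent chains, histones or in the nucleolus (such as Btf3, Naca, Nap1l1 and Npm1), 12 fell in TPM and 5 when rescaled. Of 13 genes listed for transcription of ribosomal DNA, with Myc among them, 6 fell in TPM and 4 when rescaled. Myc was called on both scales, with log2 fold changes of -2.01 and -1.40. The mitochondrial ribosome had 20 of 78 genes lower in TPM, not far above the share over all genes, and 2 of 78 when rescaled, below that share, with medians of -0.83 and -0.25.

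The 7 copies with an l suffix stood far below the standard genes in level. Rpl10l and Rpl39l, retrocopies known from the testis, were at the floor in all 11 libraries, and Rpl3l, the form of striated muscle, was above it in Casp11-/- HFD replicate 1 only (1.82 TPM). Rps27l, a target of p53, was at 8.05 and 10.2 TPM in WT-NCD, at 7.15, 4.003 and 7.41 TPM in WT-HFD, 11.05, 4.39 and 10.1 TPM in Casp11-/- NCD, and 5.37, 6.86 and 4.65 TPM in Casp11-/- HFD, with the diets overlapping. GENCODE lists Rpl6l, Rpl32l and Rps4l as processed pseudogenes, while RefSeq lists Rpl32l as protein-coding, and they had means of 24.4, 3.47 and 3.24 TPM.

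None of the 4 copies tested passed the diet test, with log2 fold changes of -0.84 for Rpl6l, -0.49 for Rps27l, -0.25 for Rps4l and -0.10 for Rpl32l (adjusted p from 0.103 to 0.833). When each library was centred on its median ribosomal protein gene, Rpl32l (1.32 ± 0.402), Rps4l (1.18 ± 0.332) and Rps27l (0.93 ± 0.260) were higher on HFD than that median (SE; adjusted p = 0.00935, 0.00607 and 0.00552). On that scale 69.9% of all genes tested were also called higher, so the copies moved like most other genes there. Of the 76 standard genes limma called 0 (1 at an unadjusted p under 0.05). Centring on these same genes takes out the shift they share, so their low count follows largely from the centring. Values near the floor compress fold changes on the log2(TPM + 1) scale.

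No member differed between the genotypes by the test. Between Casp11-/- and WT mice on NCD limma called 0 of 80 members (0.0557% of all genes) with a median of -0.38, and on HFD 0 of 80 (0% of all genes) with a median of -0.01. The interaction of diet and genotype was called for 0 of 80 (0.00557% of all genes) with a median of 0.38. In each of these comparisons 0 members had an unadjusted p under 0.05. On NCD the extremes were Rpl28 (-0.64) and Rps4l (1.19), and on HFD Rpl39 (-0.39) and Rpl36a (0.57). The diet difference was more negative in WT than in Casp11-/- mice for 74 of the 76 standard genes, which share the same libraries and so are not separate observations.

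After rescaling, the standard genes followed one another closely over the 11 libraries. Pearson's r of a gene with the mean ribosomal protein profile had a median of 0.954 and was lowest for Rplp1 (0.433), Rpl39 (0.623), Rpl36a (0.635), Rpl26 (0.702) and Rpl37 (0.774). Against the median gene of each library, the SD over libraries was under 0.25 on the log2 scale for 66 of the 76, with a median of 0.164. Rps6, the classic target of S6 kinase, was the steadiest at 0.06, and Rplp1 the most variable at 0.48. These are descriptions, since the genes share the libraries. Genes of higher level had the more negative diet fold changes (Spearman's rho -0.448 over the 76 genes, given with no test).

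**Figure D5:**
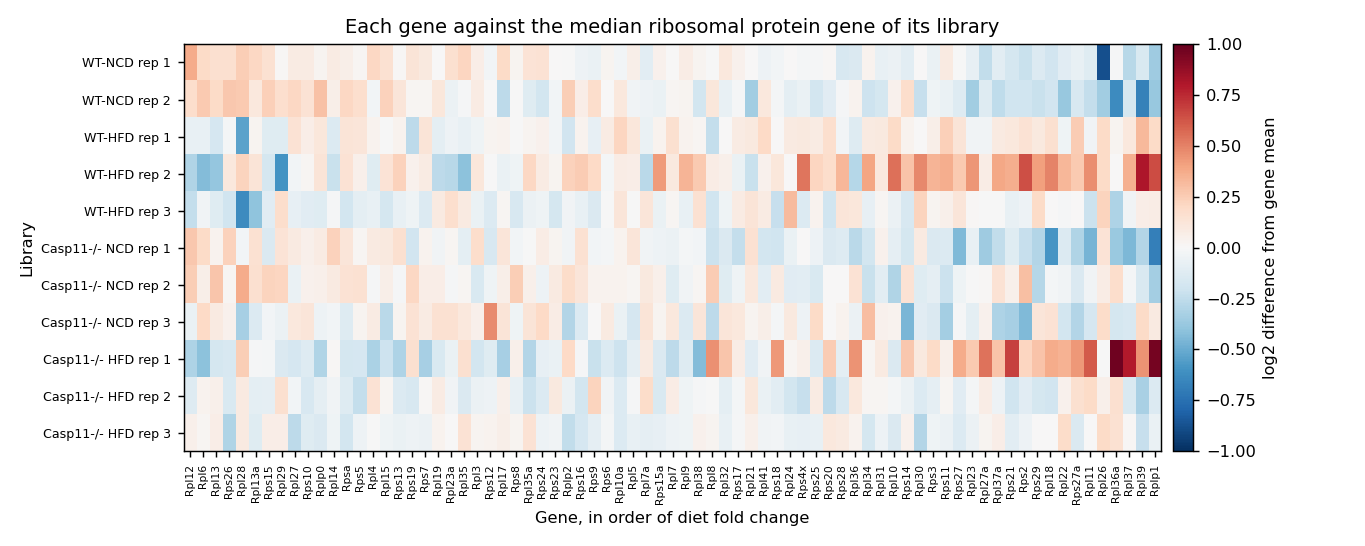
The standard genes (columns, in order of diet fold change, 1 not shown) in each of the 11 libraries (rows), as the log2 difference from the median ribosomal protein gene of the library, less the gene's own mean, with the colour scale ending at -1 and 1. Most columns are pale, and colour is strongest at the right, where Rplp1, Rpl39 and Rpl26 stand, and in the rows of WT-HFD replicate 2 and Casp11-/- HFD replicate 1.

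Among the 2371 other protein-coding genes with a mean of at least 20 TPM, the profiles most like that of the ribosomal protein genes were those of Eef1b2 (r = 0.995), Cct2 (0.972), Btf3 (0.965), Eef2 (0.961) and Eef1g (0.960), over 11 libraries. Eef1b2, Eef1g and Eef2 encode elongation factors, Cct2 a subunit of the chaperonin that folds actin and tubulin, and Btf3 a subunit of the complex that binds nascent chains. Eef1b2 was at 127 TPM in both WT-NCD libraries, 43.3, 26.8 and 58.3 TPM in WT-HFD, 145, 54.7 and 98.5 TPM in Casp11-/- NCD, and 38.6, 38.2 and 48.6 TPM in Casp11-/- HFD. Its diet difference, -1.37 on the log2 scale in TPM and -0.72 when rescaled, follows from its choice by profile and is no separate result. Eef1b2, Btf3, Eef2 and Eef1g were also counted above among the genes for elongation factors and proteins that act on nascent chains. The most opposite profile was that of Scarb1 (r = -0.921), the receptor for high-density lipoprotein.

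Markers of several blood cells moved between the diets in the same libraries as the ribosomal protein genes. Of 8 B cell genes 8 fell in TPM and 8 when rescaled, where 17.3% and 6.26% of all genes were called lower. Their share of protein-coding TPM was 0.209 to 0.466% on NCD and 0.0842 to 0.139% on HFD. The T cell list (7 of 10 lower in TPM, 1 of 10 rescaled, the latter near the share over all genes) had 0.0601 to 0.168% on NCD and 0.0395 to 0.0952% on HFD. The NK cell list (6 and 3 of 6 lower) had 0.0376 to 0.0940% and 0.0246 to 0.0350%. Erythroid genes, of which 5 of 8 could be tested, had 5 and 4 lower, with 0.2503 to 4.18% on NCD and 0.174 to 0.307% on HFD.

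In the other direction, 9 of 10 Kupffer cell genes rose in TPM and 10 of 10 when rescaled, and 6 and 7 of 8 genes of sinusoidal endothelium rose, from 0.0264 to 0.132% on NCD to 0.138 to 0.514% on HFD. Over all genes tested, 192 of 17950 were called higher in TPM and 921 of 12369 when rescaled. For hepatocyte genes 0 of 10 changed on either scale (limma, 0 at an unadjusted p under 0.05 in TPM and 3 when rescaled). Neutrophil genes had 2 and 1 of 10 lower, and 1 library, Casp11-/- HFD replicate 2, held 1.79% against 0.0587% in the lowest HFD library. Of 6 monocyte genes 1 fell in TPM and 0 when rescaled (1 at an unadjusted p under 0.05). Of 6 dendritic cell genes 0 passed the test in TPM and 2 rose when rescaled, and of 7 stellate cell genes tested 1 rose and 1 fell in TPM. The B, T and NK cell, hepatocyte and endothelial markers were above the floor in all 11 libraries, and no marker of any list was at the floor in all of them. The part of these cells in the ribosomal protein result was not tested.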

How the data were processed

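Stranded total RNA libraries (random-primed, single-end) were aligned by the authors to mm10 (GRCm38.p6) with STAR, and TPM were computed by the authors and deposited as 1 value per gene and library. These deposited values are treated as a score, because low values were raised to a floor, so totals exceed those of TPM. No counts were used, and the depth is not given by the values. Rows with no gene name (6) were left out, and 0 per-sample columns went unused. No 2 libraries were identical.

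Group differences on log2(TPM + 1) were fitted in R 4.3.3 by limma 3.58.1 (trend, two-sided), for genes that exceeded the floor in 3 or more of the 11 libraries, with 4 group means in 1 fit and Benjamini-Hochberg adjustment over all genes tested at 0.05. The other steps ran in Python 3.11.15 (SciPy 1.17.1, numpy 2.4.6, matplotlib 3.10.9, pandas 2.3.3). Replicates are separate mice by the labels. Shares are sums of TPM and were given without a test. The sum of the members includes Rpl6l and Rps4l, copies of low level that do not count among the protein-coding genes it was divided by. Gene positions come from GENCODE vM21, types and promoters from RefSeq. The fits were tested on simulated data in which each gene varied independently, which does not cover shifts that the members share within a library.

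Members and gene lists were chosen with earlier results of these data known. Named genes were, by rule, all members of the ribosomal lists as groups with their extremes, the 5 members of highest and of lowest fold change in each comparison, the 5 of highest and lowest level, members at the floor, the 5 nearest profiles, and Casp4, Fau and Rack1, with some items not reported here. Rps3a1, Rps19, Rps6, Scarb1 and the genes with printed start sites were chosen after their values were seen. Alternatives were rescaled protein-coding genes, centring on the median gene, all 12 libraries, no filter, a filter in every library, a pseudocount of 0.1, a spread from the groups compared, a replicate block, and each library left out. Centring on the ribosomal protein genes, and leaving libraries out of the rescaled fit, were added after the data were seen.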

Additional observations from a re-analysis of the deposited data

Results flagged for a closer look

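WT-NCD replicate 3, which entered no comparison, listed 3 copies that were at the floor in each of the 5 other NCD libraries. Rpl39l was at 15.47 TPM, Rpl10l at 13.01 TPM and Rpl3l at 7.244 TPM. In the same library 39677 genes exceeded the floor, against 12940 to 18775 in the libraries used, and the highest TPM of any gene was 1635, against 153305 to 430602. Its ribosomal protein share of protein-coding TPM was 0.947%.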

How the results depend on the processing

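No alternative turned the direction of the members' median for the diet within WT, within Casp11-/- or over both genotypes. In WT mice, the count of members lower (1) was 0 when rescaled (median -0.85), when centred on the median gene (-0.97), with all 12 libraries (-0.13) and with the replicate block on rescaled values (-0.89), 2 with the filter in every library, 29 with the replicate block (6.04% of all genes lower), 62 with the spread of the groups compared (15.2% of all genes), and 0 to 49 over the libraries left out (1.02 to 5.78% of all genes, medians -1.86 to -1.27). In Casp11-/- mice, the median of -1.24 was -0.66 when rescaled with or without the block and -0.51 when median centred, the count was 1 with the block (5.97% of all genes), and leaving libraries out gave 0 to 77, the highest without Casp11-/- NCD replicate 2 (46.1% of all genes, medians -1.60 to -0.92). Over both genotypes, the 73 became 29 when rescaled (-0.74), 35 with the replicate block on rescaled values (-0.77, 13.4% of all genes lower), 0 with all 12 libraries (-0.65, 0.513% of all genes) and 3 to 78 over the libraries left out (2.96 to 45.8% of all genes, medians -1.59 to -1.25), and the median was -0.73 when median centred. Rescaled, the 29 ranged from 0 to 56 (0.635 to 18.5% of all genes, medians -0.84 to -0.63).

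The genotype medians with all 12 libraries were 1.14 on NCD and -1.14 for the interaction, and over the libraries left out they lay at -0.69 to -0.04 on NCD, -0.33 to 0.25 on HFD and 0.00032 to 0.71 for the interaction. The log2 ratio of the share was -1.54 (WT), -1.36 (Casp11-/-) and -1.43 (both) of all TPM, -0.34 (WT) with all 12 libraries, and -1.03 to -0.77, -0.86 to -0.43 and -0.85 to -0.66 over the libraries left out. Correlations of deviations from the group means ran from -0.327 to 0.467 over 15 pairs of libraries with the same replicate number. Libraries with different numbers were not compared, so these values do not decide whether replicate numbers pair the mice.

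Single genes that changed sign were not called under any of these. When rescaled, median centred and rescaled with the block, Rpl32l was 0.51, 0.60 and 0.36 in WT, 0.30, 0.54 and 0.30 in Casp11-/- and 0.41, 0.57 and 0.33 over both, and Rps27l was 0.13, 0.095 and 0.17, then 0.066, 0.28 and 0.066, then 0.098, 0.19 and 0.12. Median centring gave 0.43 for Rps4l over both, and 0.086 for Rplp1, 0.076 for Rpl36a and 0.015 for Rpl11 in Casp11-/- mice. All 12 libraries gave -0.41 for Rps4l, 0.61 for Rpl26 and 0.067 for Rpl39 in WT. Over libraries left out, Rpl32l ranged from -0.34 to 0.29 (WT), -0.75 to 0.52 (Casp11-/-) and -0.39 to 0.25 (both), and Rps4l from -0.61 to 0.074 (both). The cause of these changes was not tested. The adjusted p of Rpl12 over both genotypes ranged from 0.00113 to 0.564 and that of Rpl28 in WT from 0.000193 to 0.513.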
